A study of Mus musculus with 9 samples.

Results

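Integrins are the cell's receptors for extracellular matrix, and laminins are the basement membrane proteins that many of them bind. The genes of both families were followed across 3 mouse models of glioblastoma. They comprised every protein-coding gene whose mouse symbol names an integrin alpha or beta subunit or a laminin alpha, beta or gamma chain. That rule gave 37 genes of the 46517 gene identifiers counted, namely 18 integrin alpha subunits, 8 integrin beta subunits, 5 laminin alpha chains, 3 beta chains and 3 gamma chains. The rule uses gene symbols and no measured value, but the group was chosen with earlier results of these data known.

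Bulk RNA sequencing of primary glioblastoma tissue gave 9 libraries, 3 from each model, all on a mixed strain background. Synapsin-cre tumours came from mice named for a Cre recombinase under the promoter of synapsin, a neuronal gene. NG2-creERTM tumours came from mice with a tamoxifen-activated Cre under the promoter of the NG2 proteoglycan gene Cspg4, which oligodendrocyte precursors and pericytes use. Nestin-creERT2 tumours came from mice with a tamoxifen-activated Cre under the promoter of nestin, a gene of neural stem and progenitor cells. The labels describe the models as standing for different cells of origin. They name no tumour-driving allele, tamoxifen dose, tumour site, age or sex, and they do not say that the 3 samples of a model came from separate mice. The spread between samples behind each p-value may therefore be partly technical.

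Integrins are heterodimers of an alpha and a beta subunit. The pair decides the ligand, and the beta tail recruits talin, kindlin and the kinases of the focal adhesion. Laminins are trimers of an alpha, a beta and a gamma chain, and with type IV collagen, nidogen and perlecan they build the sheet that surrounds blood vessels, Schwann cells and the pial surface. In the brain, the vascular basement membrane is the main site of laminin, and glioma cells are known to move along it.

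The libraries held 23557398 to 41099967 counts in genes, with a median of 34742585. Glial tissue was evident in all of them, since the summed level of 10 astrocyte markers was 466 to 8605 CPM and that of 9 oligodendrocyte lineage markers was 652 to 7459 CPM. CPM are counts scaled to a common library total, here with TMM factors (trimmed mean of M values, which adjust each library's total). Synapsin-cre replicate 1 stood apart from the other 8 libraries. Its 11 neuronal markers summed to 6834 CPM, against 91.8 to 1367 CPM elsewhere, and its 10 proliferation markers summed to 144 CPM, against 1239 to 2658 CPM elsewhere. Results that rest on this library are given with and without it. Nestin-creERT2 replicate 1 stood apart in another way. Its 8 choroid plexus and ependyma markers summed to 6059 CPM, against 13.3 to 421 CPM elsewhere. This library is part of every Nestin-creERT2 mean and range below, and the part of such tissue in the member levels was not tested. In bulk tissue, fewer cells of a type and less RNA per cell cannot be told apart.

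The DNA just upstream of 5 members illustrates how different their start regions are. They passed the adjusted threshold in at least 1 of the edgeR fits described below. Members were shown only where the RefSeq promoter begins at the annotated 5′ end of the gene or, for Itgax, a few bases inside it. RefSeq (GRCm38.p6) had a promoter entry for 23 of the 37 members, and the 250 bases before the start are shown 5′ to 3′ on the gene's own strand. Capitals mark 2 motifs, the GC box (GGGCGG, or CCGCCC on the other strand) and the AP-1 element (TGANTCA), both chosen after the sequences were seen. These are the basement membrane chain Lama5 (chr2:180225860-180226109, minus strand), the collagen receptors Itga1 (chr13:115101965-115102214, minus strand) and Itga2 (chr13:114932101-114932350, minus strand), the vitronectin receptor subunit Itgb5 (chr16:33829415-33829664, plus strand) and the myeloid subunit Itgax (chr7:128129300-128129549, plus strand).
Lama5: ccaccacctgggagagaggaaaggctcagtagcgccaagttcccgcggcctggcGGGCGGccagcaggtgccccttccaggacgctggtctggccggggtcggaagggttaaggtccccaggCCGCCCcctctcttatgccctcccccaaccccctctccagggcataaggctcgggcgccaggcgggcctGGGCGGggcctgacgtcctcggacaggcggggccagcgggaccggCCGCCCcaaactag
Itga1: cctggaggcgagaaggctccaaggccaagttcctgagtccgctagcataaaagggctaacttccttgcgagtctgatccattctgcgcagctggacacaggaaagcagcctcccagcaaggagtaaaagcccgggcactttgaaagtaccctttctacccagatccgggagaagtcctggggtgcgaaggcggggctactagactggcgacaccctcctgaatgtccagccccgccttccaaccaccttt
Itga2: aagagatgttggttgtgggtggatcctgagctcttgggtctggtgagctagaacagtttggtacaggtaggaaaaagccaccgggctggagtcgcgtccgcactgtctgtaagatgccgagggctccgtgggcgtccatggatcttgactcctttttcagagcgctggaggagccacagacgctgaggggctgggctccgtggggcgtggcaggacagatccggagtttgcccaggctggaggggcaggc
Itgb5: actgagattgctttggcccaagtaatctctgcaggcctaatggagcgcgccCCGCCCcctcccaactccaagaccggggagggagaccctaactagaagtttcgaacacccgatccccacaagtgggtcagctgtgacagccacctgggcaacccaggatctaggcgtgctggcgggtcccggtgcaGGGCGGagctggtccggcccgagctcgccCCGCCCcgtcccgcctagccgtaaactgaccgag
Itgax: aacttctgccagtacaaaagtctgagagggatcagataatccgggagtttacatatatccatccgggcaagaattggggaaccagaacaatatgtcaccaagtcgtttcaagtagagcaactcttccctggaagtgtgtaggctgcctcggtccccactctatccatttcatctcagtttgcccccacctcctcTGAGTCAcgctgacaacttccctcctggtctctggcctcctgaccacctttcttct

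The Lama5 region held 4 GC boxes and the Itgb5 region held 3, whereas the Itga1, Itga2 and Itgax regions held 0. The Itgax region held 1 AP-1 element and the other 4 held 0. A GC box was present in 32.7% and an AP-1 element in 6.75% of the 32851 promoters of the same length, and the 2 motifs do not overlap each other. Itgb3 and Itgb4, which also passed in at least 1 edgeR fit, had no entry, and the entry for Itga9 begins inside the gene. A match of letters is a description of the sequence and not a binding site.

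Most of the integrin and laminin genes were expressed in these tumours. The median over the 9 libraries was at least 1 CPM for 33 of the 37, and 27 reached 1 CPM in every library. Itgad, Itgae and Itgb6 stayed below 1 CPM in all 9, and Itgad and Itgb6, with at most 9 and 16 counts in a library, were not tested. Per length, as CPM per kb of merged exon, Itgb1 was the highest member in every library, with a median of 151 and a range of 28.1 to 276 CPM per kb. It encodes the beta subunit that pairs with the most alpha subunits. The next by median were Lamc1 (22.9 CPM per kb), Itgb5 (21.96), Itgav (16.6), Itgb8 (15.01), Itga5 (10.6) and Lama4 (9.40). The ranges of neighbours in this order overlapped, that of Lamc1 being 8.48 to 47.2 and that of Itgb5 being 5.23 to 25.8 CPM per kb.

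**Figure D1:**
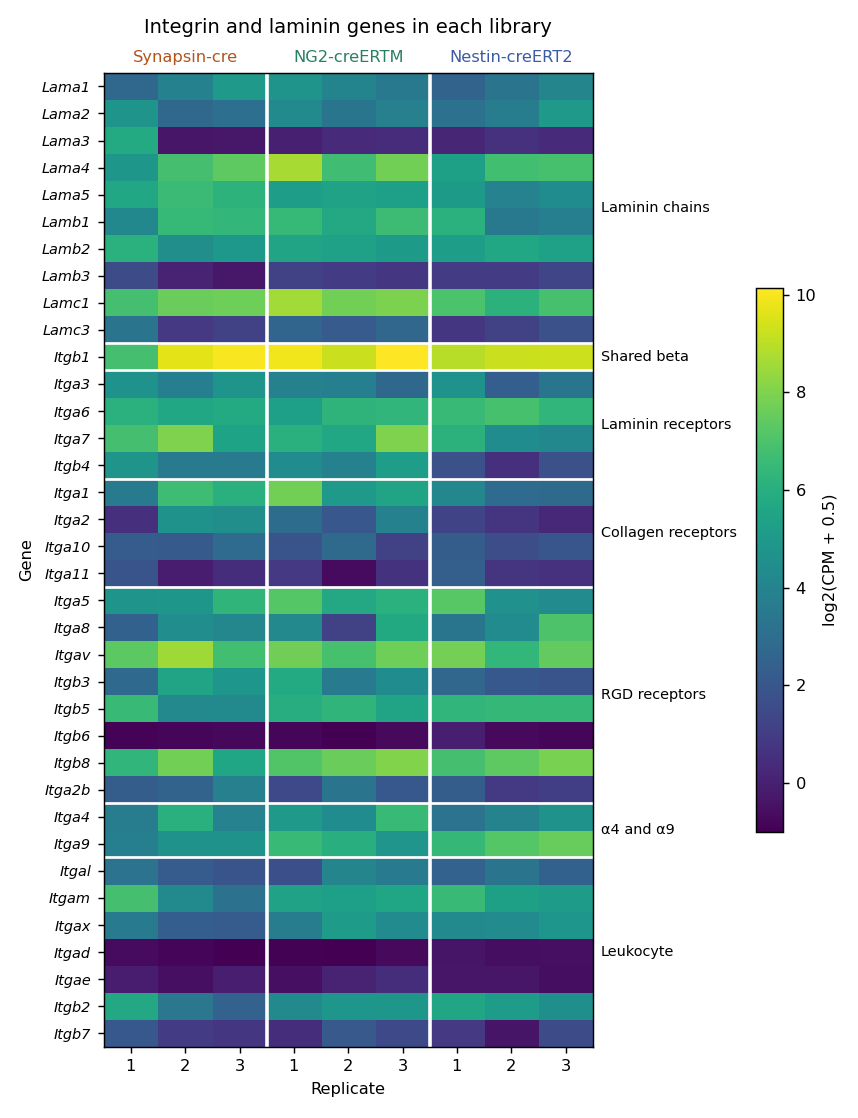
Level of 36 of the 37 integrin and laminin genes (down) in each of the 9 libraries (across), as log2(CPM + 0.5), with genes grouped by role. Itgb1 is the brightest line, Itgad, Itgae and Itgb6 are dark throughout, and Lama3 is bright only in Synapsin-cre replicate 1.

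Of the 37 members, 35 had enough counts to be tested among 17947 genes with edgeR's quasi-likelihood test and Benjamini-Hochberg adjustment. With all 9 libraries in the fit, 0 of the 35 had an adjusted p under 0.05 in any of the 3 comparisons, as did 0% of all genes tested. The lowest adjusted p of a member was 0.227 for Synapsin-cre over Nestin-creERT2, 0.217 for NG2-creERTM over Nestin-creERT2 and 0.357 for Synapsin-cre over NG2-creERTM. limma voom also called 0 members and 0% of all genes. DESeq2 called 6 of the 35 for Synapsin-cre over Nestin-creERT2, where it called 2.77% of all genes. It called 4 for NG2-creERTM over Nestin-creERT2, where it called 3.48%, and 1 for Synapsin-cre over NG2-creERTM, where it called 2.51%. The comparisons share libraries, so their values for a gene are not independent of each other.

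At an unadjusted p under 0.05 edgeR gave 8 members for Synapsin-cre over Nestin-creERT2, 6 higher and 2 lower, beside 10.8% of all genes (6.74% higher and 4.05% lower). It gave 6 members for NG2-creERTM over Nestin-creERT2, 5 higher and 1 lower, beside 11.3% of all genes (5.53% higher and 5.73% lower). For Synapsin-cre over NG2-creERTM it gave 4 members, 2 higher and 2 lower, beside 12.8% of all genes (8.81% higher and 4% lower). Itga1, Itga2, Itgb3 and Itgb4 were among the higher members in both tumour models set against Nestin-creERT2, which share the Nestin-creERT2 libraries. The median log2 fold change of the 35 members was 0.42 for Synapsin-cre over Nestin-creERT2, against 0.13 for all genes, and without Synapsin-cre replicate 1 it was -0.02, against 0.01. For NG2-creERTM over Nestin-creERT2 it was 0.44, against 0.02 for all genes. For Synapsin-cre over NG2-creERTM it was -0.21, against 0.08, and without Synapsin-cre replicate 1 it was -0.54, against -0.01.

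The libraries of the 2 models did not overlap for 7 members between Synapsin-cre and Nestin-creERT2, where 14.7% of all genes did not overlap. Itga2b, Itgb3, Itgb4 and Lama5 were higher, and Itga6, Itga9 and Itgax lower, in every Synapsin-cre library. Between NG2-creERTM and Nestin-creERT2 the libraries were apart for 8 members, where 25.1% of all genes were. Itga1, Itga2, Itgb3, Itgb4, Lama5, Lamc1 and Lamc3 were higher, and Itgb5 lower, in every NG2-creERTM library. Between Synapsin-cre and NG2-creERTM they were apart for 4 members, where 13.8% of all genes were. Lama5 was higher, and Itga9, Itgax and Lamc1 lower, in every Synapsin-cre library. These counts of members without overlap are not far from the background of all genes. The members were not compared with other groups of genes in this respect.

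**Figure D2:**
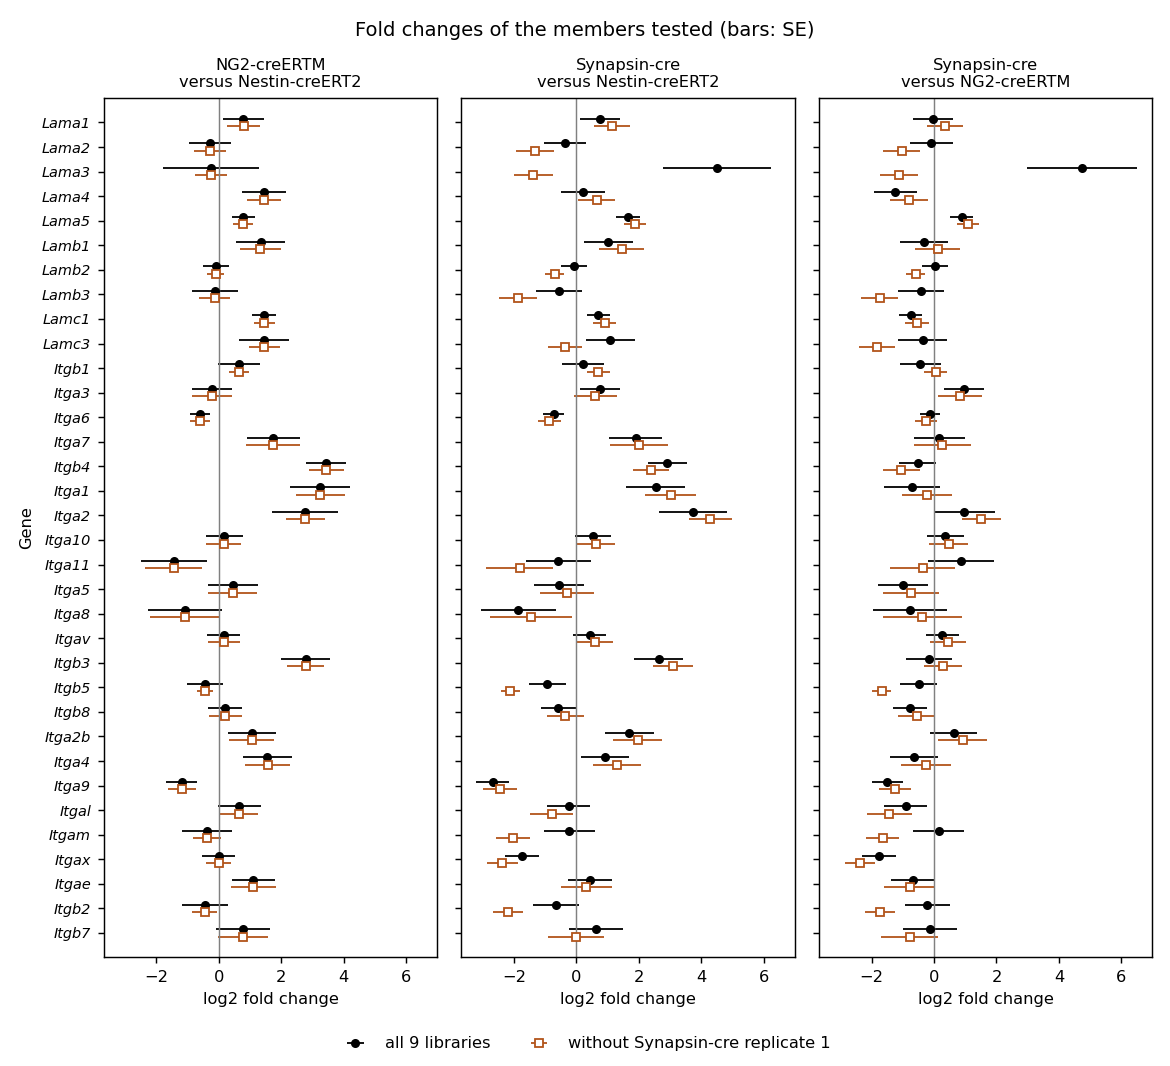
Log2 fold change (horizontal, bars are the SE from edgeR) of 34 of the 35 members tested in each comparison, from the fit of all 9 libraries (filled circles) and the fit without Synapsin-cre replicate 1 (open squares). Itgb4 lies at 2.91 for Synapsin-cre and 3.43 for NG2-creERTM over Nestin-creERT2, and Lama3 in Synapsin-cre over Nestin-creERT2 lies at 4.50 with all 9 libraries and at -1.38 without Synapsin-cre replicate 1.

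Leaving out Synapsin-cre replicate 1 brought a few members under the threshold. In that fit 3 of 35 members had an adjusted p under 0.05 for Synapsin-cre over Nestin-creERT2, where 1.48% of genes did, namely Itga2 and Lama5 higher and Itgb5 lower. For NG2-creERTM over Nestin-creERT2 it was 1 member, Itgb4, where 0.671% of genes passed. For Synapsin-cre over NG2-creERTM it was 0 members in edgeR, beside 0.00541% of genes. A fit of the 2 Synapsin-cre libraries and the 3 Nestin-creERT2 libraries alone, chosen after seeing the data, gave 6 of 35 members beside 2.42% of genes, with Itga1, Itga2 and Itgb3 higher and Itga9, Itgax and Itgb5 lower. Genes called in such fits and not in the fit of all 9 libraries are given below with both values.

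**Figure D3:**
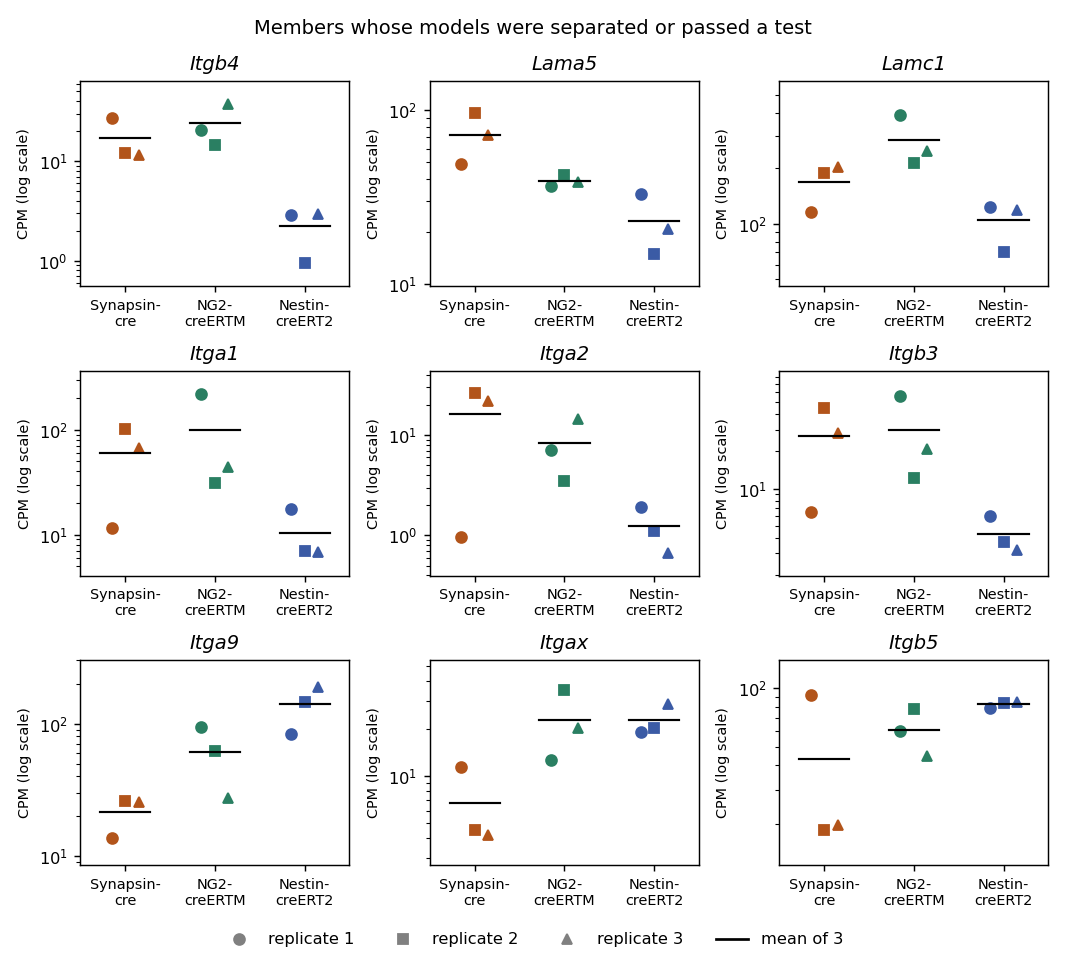
CPM (log axis) in each library of 9 members whose models were apart or that passed a test in at least 1 fit, with Synapsin-cre, NG2-creERTM and Nestin-creERT2 from left to right. Marker shape is the replicate and the bar is the mean of 3 libraries. Itgb4 is between 0.942 and 2.93 CPM in Nestin-creERT2 and at least 11.6 CPM in the other 6 libraries.

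Laminin alpha chains set where a laminin is used. Lama5, the alpha chain of mature vascular and epithelial basement membranes (ENSMUSG00000015647, chr2:180176373-180225859), was highest in Synapsin-cre tumours and lowest in Nestin-creERT2 tumours. It had 49.2, 95.5 and 72.0 CPM in Synapsin-cre tumours, 36.6, 42.2 and 38.7 CPM in NG2-creERTM, and 32.9, 14.99 and 20.9 CPM in Nestin-creERT2. The libraries of the 3 models did not overlap in any pair, and Lama5 was the only one of the 35 members for which this held. Its log2 fold change for Synapsin-cre over Nestin-creERT2 was 1.66 ± 0.37 (SE), with an adjusted p of 0.260. Without Synapsin-cre replicate 1 it rose by 1.86 ± 0.36, with an adjusted p of 0.0443. Over the 17 alternatives the adjusted p ranged from 0.00807 with DESeq2 to 0.724. NG2-creERTM over Nestin-creERT2 gave 0.77 ± 0.37, with an adjusted p of 0.471, and Synapsin-cre over NG2-creERTM gave 0.88 ± 0.37, with an adjusted p of 0.376.

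Lama4, the alpha chain of endothelial and perivascular basement membranes, had 29.2, 113 and 166 CPM in Synapsin-cre tumours, 408, 105 and 214 CPM in NG2-creERTM, and 39.9, 107 and 119.9 CPM in Nestin-creERT2. NG2-creERTM replicate 1 was far above all others, and the ranges of the 3 models overlapped. The difference between NG2-creERTM and Nestin-creERT2, 1.44 ± 0.70 in log2, had an adjusted p of 0.483. Lama1, the chain of early embryonic basement membranes, lay between 5.41 and 31.2 CPM, and Lama2, the chain of muscle, Schwann cell and astrocyte endfoot basement membranes, lay between 6.07 and 31.1 CPM. The ranges of the 3 models overlapped for both.

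Lama3, the alpha chain of the epithelial laminin that also holds Lamb3, was present at a sizeable level in a single library. It had 55.8, 0.303 and 0.331 CPM in Synapsin-cre tumours, 0.479, 0.785 and 0.819 CPM in NG2-creERTM, and 0.646, 1.03 and 0.810 CPM in Nestin-creERT2. Synapsin-cre replicate 1 stood above the other 8 libraries, and the remaining Synapsin-cre libraries lay below all 6 others. The log2 fold change for Synapsin-cre over Nestin-creERT2 was 4.50 ± 1.74 with that library, with an adjusted p of 0.422, and -1.38 ± 0.62 without it, with an adjusted p of 0.236. In that library its partner Lamb3 was at 2.43 CPM, and 7 epithelial markers summed to 2.88 CPM, against 3.32 to 27.5 CPM in the others, with Krt14 below 0.1 CPM in all 9. The part of these markers or of the neuronal markers in the Lama3 level was not tested.

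Lamb1 and Lamb2 are the common beta chains, Lamb2 being the one of mature vessels and synapses. Lamb1 had 17.9, 88.7 and 82.8 CPM in Synapsin-cre tumours, 86.5, 51.8 and 98.4 CPM in NG2-creERTM, and 69.3, 10.9997 and 13.5 CPM in Nestin-creERT2. Synapsin-cre replicate 1 and Nestin-creERT2 replicates 2 and 3 were low, and the models overlapped. Without Synapsin-cre replicate 1, Lamb1 was higher in Synapsin-cre than in Nestin-creERT2 with no overlap. Its log2 fold change was then 1.45 ± 0.71, with an adjusted p of 0.276, against 1.01 ± 0.78 and 0.676 with all 9 libraries. Lamb2 had 68.9, 22.3 and 30.4 CPM in Synapsin-cre tumours, 44.5, 40.5 and 33.5 CPM in NG2-creERTM, and 37.3, 49.6 and 40.5 CPM in Nestin-creERT2. Here the same Synapsin-cre replicate 1 was the highest of all 9, and its fellow libraries were the lowest. The log2 fold change for Synapsin-cre over Nestin-creERT2 was -0.07 ± 0.42 with that library, with an adjusted p of 0.973. Without it the value was -0.70 ± 0.30, with an adjusted p of 0.221. Lamb3 ranged from 0.331 to 2.43 CPM.

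Lamc1, the gamma chain of nearly all vascular laminins (ENSMUSG00000026478, chr1:153218922-153332786), was higher in NG2-creERTM than in both other models. It had 115, 189.8 and 202 CPM in Synapsin-cre tumours, 390.3, 215 and 248 CPM in NG2-creERTM, and 124, 70.2 and 118 CPM in Nestin-creERT2. All NG2-creERTM libraries lay above all libraries of the other 2 models. Synapsin-cre and Nestin-creERT2 overlapped through Synapsin-cre replicate 1 alone, with a log2 fold change of 0.70 ± 0.37 and an adjusted p of 0.534. Without that library Synapsin-cre was higher with no overlap, by 0.91 ± 0.36 with an adjusted p of 0.190. For NG2-creERTM over Nestin-creERT2 the log2 fold change was 1.45 ± 0.37 (SE), with an adjusted p of 0.297, and over the 16 alternatives the adjusted p ranged from 0.0224 with DESeq2 to 0.716. For Synapsin-cre over NG2-creERTM it was -0.75 ± 0.37, with an adjusted p of 0.421. Lamc3, a rarer gamma chain, had 9.38, 1.30 and 1.71 CPM in Synapsin-cre tumours, 5.78, 4.13 and 5.96 CPM in NG2-creERTM, and 1.18, 1.72 and 2.91 CPM in Nestin-creERT2. NG2-creERTM and Nestin-creERT2 did not overlap, with a log2 fold change of 1.45 ± 0.79 and an adjusted p of 0.537.

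Markers of vessel cells were higher on average in Synapsin-cre and NG2-creERTM than in Nestin-creERT2, as were Lama4, Lamb1 and Lamc1. For Lama4 in Synapsin-cre the difference was small, with a mean of 103 CPM against 89.0 CPM. Lamb2 was not higher, at means of 40.5 CPM in Synapsin-cre, 39.5 CPM in NG2-creERTM and 42.5 CPM in Nestin-creERT2. The summed level of 10 pericyte and smooth muscle markers was 316 to 634 CPM in Synapsin-cre tumours, 498 to 980.0 CPM in NG2-creERTM and 161 to 202 CPM in Nestin-creERT2, and 8 of the 10 had a higher mean in either model than in Nestin-creERT2. That of 10 endothelial markers was 255 to 451, 253 to 474 and 135 to 251 CPM in the same models, with 9 of the 10 higher on average in both. Without Synapsin-cre replicate 1 it was 8 of the 10 endothelial markers for Synapsin-cre. Mcam held 447 of the 634 CPM of the pericyte and smooth muscle sum in NG2-creERTM replicate 3, but 78.6 of 316 CPM in Synapsin-cre replicate 1. The order of single libraries differed, since Synapsin-cre replicate 1 had the second highest endothelial sum, at 451 CPM, and the lowest Lama4 level of all 9. None of these markers stayed below 0.1 CPM in all libraries. Their part in the laminin levels was not tested.

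Set per length, the chain composition of the laminins can be described. Lama4 made up 17.1, 47.8 and 57.8% of the laminin alpha chains in Synapsin-cre, 82.5, 59.2 and 76.5% in NG2-creERTM, and 45.1, 74.0 and 64.5% in Nestin-creERT2. Lama5 made up 30.4, 42.7 and 26.5% in Synapsin-cre, 7.84, 25.3 and 14.6% in NG2-creERTM, and 39.4, 10.95 and 11.9% in Nestin-creERT2. Lama4 was thus the leading alpha chain in 8 libraries, and in Synapsin-cre replicate 1 Lama3 led with 36.6%, against at most 0.821% elsewhere. Lamb1 made up 13.4, 70.5 and 62.4% of the beta chains in Synapsin-cre, 53.5, 43.2 and 63.5% in NG2-creERTM, and 52.4, 11.7 and 16.3% in Nestin-creERT2, with Lamb2 as nearly all of the rest. Lamb2 led in Synapsin-cre replicate 1, NG2-creERTM replicate 2 and Nestin-creERT2 replicates 2 and 3, and Lamb1 in the other 5. With the length of the longest transcript in place of merged exons, Lamb1 also led in NG2-creERTM replicate 2, at 54.5%, while Lama4 and Lama3 led in the same libraries as before.

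**Figure D4:**
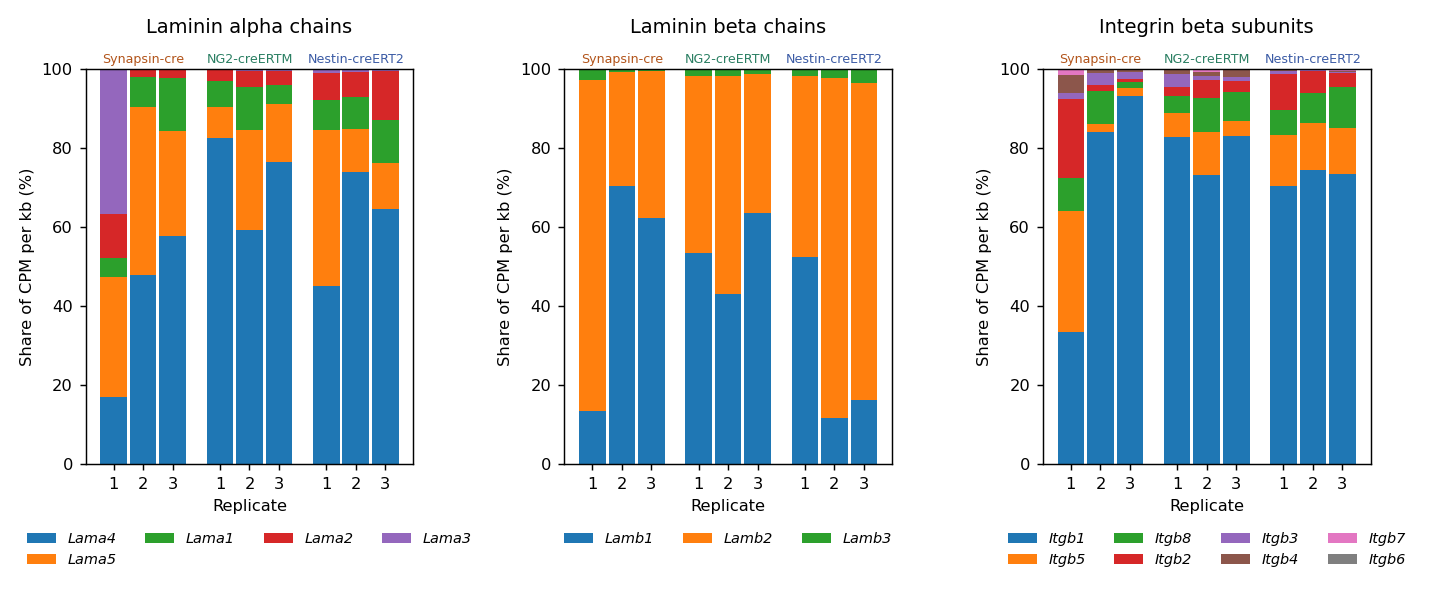
Share of each chain in the summed CPM per kb (vertical, percent) of the laminin alpha chains, the laminin beta chains and the integrin beta subunits, in each of the 9 libraries. Lama4 leads among the alpha chains except in Synapsin-cre replicate 1, and Itgb1 holds 70.4 to 93.3% of the integrin beta subunits outside that library.

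Among the laminin receptors, Itgb4 showed the clearest separation. It encodes the beta subunit that joins alpha6 to form the laminin receptor of hemidesmosomes, which Schwann cells and some endothelial cells also carry (ENSMUSG00000020758, chr11:115974709-116008412). It had 27.0, 12.1 and 11.6 CPM in Synapsin-cre tumours, 20.6, 14.4 and 37.8 CPM in NG2-creERTM, and 2.85, 0.942 and 2.93 CPM in Nestin-creERT2. All 6 libraries of Synapsin-cre and NG2-creERTM lay above the 3 of Nestin-creERT2, and those 2 models overlapped each other. Itgb4 averaged 24.3 ± 12.1 CPM in NG2-creERTM and 2.24 ± 1.13 CPM in Nestin-creERT2 (SD, n = 3 each), a log2 fold change of 3.43 ± 0.64 (SE) with an adjusted p of 0.217. It rose by 3.44 ± 0.57 in the fit without Synapsin-cre replicate 1, with an adjusted p of 0.0460, and by 3.44 ± 0.60 in the fit of the 6 libraries of these models, with an adjusted p of 0.0446 where 1.39% of genes passed. Over the 16 alternatives the adjusted p ranged from 8.69e-06 with DESeq2 to 0.643. For Synapsin-cre over Nestin-creERT2 the log2 fold change was 2.91 ± 0.63, with an adjusted p of 0.248, and 2.39 ± 0.58 without Synapsin-cre replicate 1, with an adjusted p of 0.0674.

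Schwann cell and neural crest markers were higher in the same 2 models. Their summed level over 11 markers was 1839 to 4562 CPM in Synapsin-cre tumours, 2517 to 7163 CPM in NG2-creERTM and 382 to 1327 CPM in Nestin-creERT2. All 11 had a higher mean in both models than in Nestin-creERT2, 6 of them without overlap in Synapsin-cre and 9 in NG2-creERTM, and none was below 0.1 CPM in all 9 libraries. Several of the 11, such as Sox10 and Mbp, are also genes of the oligodendrocyte lineage. Their part in the Itgb4 level was not tested.

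The alpha subunits of the laminin receptors did not share a single order. Itga6, which pairs with either Itgb1 or Itgb4, had 68.4, 51.4 and 55.8 CPM in Synapsin-cre tumours, 38.5, 74.1 and 79.0 CPM in NG2-creERTM, and 93.3, 119 and 79.0 CPM in Nestin-creERT2. It was thus lower in every Synapsin-cre library than in any Nestin-creERT2 library, by a log2 fold change of -0.73 ± 0.33 with an adjusted p of 0.468. Itga3, which joins Itgb1 in a receptor for laminins with the alpha3 or alpha5 chain, lay between 4.49 and 26.8 CPM with overlap of all models. Itga7, best known as the laminin receptor of muscle, had 116, 252 and 43.2 CPM in Synapsin-cre tumours, 66.9, 51.2 and 249.6 CPM in NG2-creERTM, and 71.7, 20.5 and 17.9 CPM in Nestin-creERT2. The highest levels were those of Synapsin-cre replicate 2 and NG2-creERTM replicate 3. The models overlapped, and the lowest mean was that of Nestin-creERT2, as for Itgb4.

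The collagen receptor subunits Itga1 and Itga2 lie next to each other on chromosome 13, with 20.995 kb between them in GENCODE vM21 on GRCm38. Itga1 had 11.5, 101.8 and 67.2 CPM in Synapsin-cre tumours, 219.7, 31.1 and 44.5 CPM in NG2-creERTM, and 17.4, 7.01 and 6.77 CPM in Nestin-creERT2. Itga2 had 0.974, 26.2 and 22.1 CPM in Synapsin-cre tumours, 7.07, 3.53 and 14.5 CPM in NG2-creERTM, and 1.94, 1.11 and 0.667 CPM in Nestin-creERT2. Both were higher in every NG2-creERTM library than in any Nestin-creERT2 library, while among Synapsin-cre libraries replicate 1 was as low as Nestin-creERT2.

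For Synapsin-cre over Nestin-creERT2 the log2 fold change of Itga2 was 3.73 ± 1.09 (SE), with an adjusted p of 0.329. Without Synapsin-cre replicate 1 it rose by 4.28 ± 0.69, with an adjusted p of 0.0326, and over the 17 alternatives the adjusted p ranged from 0.0101 with DESeq2 to 0.772. That of Itga1 was 2.54 ± 0.94, with an adjusted p of 0.401, and 3.02 ± 0.81 without that library, with an adjusted p of 0.0868. In the fit of these 2 models without that library it was 3.02 ± 0.51, with an adjusted p of 0.0385, the lowest of a range that reached 0.810. For NG2-creERTM over Nestin-creERT2, Itga1 gave 3.25 ± 0.96 with an adjusted p of 0.318, and Itga2 gave 2.76 ± 1.05 with an adjusted p of 0.399. The other collagen receptor subunits did not share this pattern. Itga10 stayed between 1.76 and 6.86 CPM and Itga11 between 0.131 and 4.61 CPM, with overlap of all models, except that Itga11 without Synapsin-cre replicate 1 was lower in Synapsin-cre than in Nestin-creERT2.

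Several integrins recognise the RGD tripeptide of fibronectin, vitronectin and latent TGF-beta. Itgb3, the beta subunit of the vitronectin receptor of angiogenic endothelium and of the platelet fibrinogen receptor, had 6.46, 44.7 and 28.3 CPM in Synapsin-cre tumours, 55.6, 12.1 and 20.9 CPM in NG2-creERTM, and 5.97, 3.69 and 3.19 CPM in Nestin-creERT2. The libraries of both models lay above those of Nestin-creERT2, though Synapsin-cre replicate 1 did so by a small margin. For Synapsin-cre over Nestin-creERT2 the log2 fold change was 2.63 ± 0.78 (SE), with an adjusted p of 0.329. It was 3.09 ± 0.63 without Synapsin-cre replicate 1, with an adjusted p of 0.0514, and 3.09 ± 0.45 in the fit of these 2 models without that library, with an adjusted p of 0.0283. Over the 17 alternatives the adjusted p reached 0.772. NG2-creERTM over Nestin-creERT2 gave 2.78 ± 0.78, with an adjusted p of 0.313. Platelet RNA was scarce, since 6 platelet and megakaryocyte markers summed to 0.214 to 2.13 CPM over the 9 libraries, with Gp1ba and Gp6 below 0.1 CPM in all.

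Itgb5, another beta partner of alphaV for vitronectin, showed a different order (ENSMUSG00000022817, chr16:33829665-33949338). It had 91.6, 18.6 and 19.7 CPM in Synapsin-cre tumours, 60.5, 78.0 and 44.5 CPM in NG2-creERTM, and 79.4, 83.8 and 84.4 CPM in Nestin-creERT2. Synapsin-cre replicate 1 was the highest of all 9 and its fellow libraries the lowest. With all libraries the log2 fold change for Synapsin-cre over Nestin-creERT2 was -0.93 ± 0.58, with an adjusted p of 0.599. Without Synapsin-cre replicate 1 it fell by 2.11 ± 0.32 on the log2 scale, with an adjusted p of 0.0292, and over the 17 alternatives the adjusted p ranged from 0.0268 to 0.861. For Synapsin-cre over NG2-creERTM without that library it was -1.67 ± 0.31, with an adjusted p of 0.243. NG2-creERTM lay below Nestin-creERT2 in every library, by -0.44 ± 0.58 with an adjusted p of 0.821.

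The other RGD receptor subunits overlapped between models, except for Itga2b. Itgav, the alpha subunit shared by these receptors, lay between 81.6 and 377 CPM, and Itgb8, which with alphaV activates latent TGF-beta in the brain, between 47.7 and 264 CPM. Itga5, the alpha subunit of the main fibronectin receptor, lay between 20.3 and 151 CPM with Nestin-creERT2 replicate 1 and NG2-creERTM replicate 1 highest. Itga8, a receptor subunit for nephronectin, had 128 CPM in Nestin-creERT2 replicate 3 and 1.78 to 54.0 CPM in the others. Itga2b, the platelet alpha subunit, had 4.43, 5.30 and 13.95 CPM in Synapsin-cre tumours, 2.22, 9.39 and 3.67 CPM in NG2-creERTM, and 4.41, 1.33 and 1.57 CPM in Nestin-creERT2. Its Synapsin-cre libraries lay just above those of Nestin-creERT2, with a log2 fold change of 1.70 ± 0.78 and an adjusted p of 0.471.

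Itgb1 had 115, 824 and 1045 CPM in Synapsin-cre tumours, 954, 599.8 and 1125 CPM in NG2-creERTM, and 491, 607 and 615 CPM in Nestin-creERT2. Synapsin-cre replicate 1 was the lowest of all 9. The log2 fold change was 0.21 for Synapsin-cre over Nestin-creERT2, 0.64 for NG2-creERTM over Nestin-creERT2 and -0.43 for Synapsin-cre over NG2-creERTM, with adjusted p of 0.938, 0.765 and 0.824 in that order. Without Synapsin-cre replicate 1 the first was 0.70 ± 0.36, with an adjusted p of 0.293 and no overlap of the libraries, and the last turned to 0.06 ± 0.36, with an adjusted p of 0.968. As a share of the integrin beta subunits per length, Itgb1 made up 33.4, 84.0 and 93.3% in Synapsin-cre, 82.8, 73.1 and 83.2% in NG2-creERTM, and 70.4, 74.5 and 73.5% in Nestin-creERT2. In Synapsin-cre replicate 1 Itgb5 (30.6%) and the leukocyte subunit Itgb2 (20.1%) held more than in any other library, where Itgb5 held 2.02 to 13.1% and Itgb2 0.618 to 9.25%.

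Itga9, a receptor subunit for tenascin-C and VCAM1 (ENSMUSG00000039115, chr9:118606690-118901003), ran opposite to Itga1, Itga2 and Itgb3. It had 13.6, 26.0 and 25.4 CPM in Synapsin-cre tumours, 93.6, 62.3 and 27.6 CPM in NG2-creERTM, and 84.2, 146 and 188 CPM in Nestin-creERT2. All Synapsin-cre libraries lay below all others, and NG2-creERTM overlapped Nestin-creERT2. For Synapsin-cre over Nestin-creERT2 the log2 fold change was -2.69 ± 0.52 (SE), with an adjusted p of 0.227. It was -2.45 ± 0.55 without Synapsin-cre replicate 1, with an adjusted p of 0.0603, and -2.44 ± 0.42 in the fit of these 2 models without that library, with an adjusted p of 0.0390. Over the 17 alternatives the adjusted p ranged from 0.000243 with DESeq2 to 0.628. Synapsin-cre over NG2-creERTM gave -1.496 ± 0.495, with an adjusted p of 0.357. Itga4, which binds VCAM1 and fibronectin on leukocytes and neural crest cells, had 12.5, 66.7 and 14.8 CPM in Synapsin-cre tumours, 31.0, 20.8 and 94.4 CPM in NG2-creERTM, and 8.84, 15.5 and 25.5 CPM in Nestin-creERT2, with overlap of all models.

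The leukocyte integrins are carried by immune cells, which in brain are mostly microglia and infiltrating macrophages. Itgax, the CD11c subunit of microglia, macrophages and dendritic cells (ENSMUSG00000030789, chr7:128129547-128150657), had 11.4, 4.52 and 4.18 CPM in Synapsin-cre tumours, 12.6, 35.02 and 20.1 CPM in NG2-creERTM, and 19.0, 20.1 and 28.7 CPM in Nestin-creERT2. All Synapsin-cre libraries lay below all others, and NG2-creERTM overlapped Nestin-creERT2. The log2 fold change was -1.75 ± 0.54 for Synapsin-cre over Nestin-creERT2, with an adjusted p of 0.346, and -1.75 ± 0.54 for Synapsin-cre over NG2-creERTM, with an adjusted p of 0.357. Without Synapsin-cre replicate 1 these were -2.38 ± 0.49, with an adjusted p of 0.0528, and -2.37 ± 0.49, with an adjusted p of 0.243. In the fit of Synapsin-cre and Nestin-creERT2 alone without that library it fell by 2.38 ± 0.42 on the log2 scale, with an adjusted p of 0.0418, the lowest of a range that reached 0.772.

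Itgam, the CD11b subunit, had 114, 18.8 and 8.36 CPM in Synapsin-cre tumours, 41.98, 39.1 and 46.3 CPM in NG2-creERTM, and 91.7, 39.95 and 34.2 CPM in Nestin-creERT2. Itgb2, the beta subunit shared by Itgal, Itgam, Itgax and Itgad, had 51.6, 10.3 and 5.17 CPM in Synapsin-cre tumours, 19.4, 28.6 and 29.4 CPM in NG2-creERTM, and 48.3, 34.7 and 22.7 CPM in Nestin-creERT2. In both genes Synapsin-cre replicate 1 was the highest of all 9 libraries and its fellow libraries were the lowest. Without replicate 1 the log2 fold change for Synapsin-cre over Nestin-creERT2 was -2.03 ± 0.53 for Itgam, with an adjusted p of 0.0811, and -2.19 ± 0.48 for Itgb2, with an adjusted p of 0.0585. With it the values were -0.23 ± 0.82 and -0.66 ± 0.74, with adjusted p of 0.945 and 0.790. Itgal, the LFA-1 subunit of lymphocytes and myeloid cells, lay between 2.79 and 16.2 CPM, and Itgb7, the partner of Itgae and Itga4 on lymphocytes, between 0.277 and 3.82 CPM.

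Microglia and macrophage markers were highest and lowest in the same Synapsin-cre libraries as Itgam and Itgb2. Their summed level over 10 markers was 1134, 236 and 151 CPM in Synapsin-cre tumours, 588 to 739 CPM in NG2-creERTM and 792 to 886 CPM in Nestin-creERT2, with Synapsin-cre replicate 1 the highest and replicates 2 and 3 the lowest. Itgax was otherwise, since its 11.4 CPM in Synapsin-cre replicate 1 lay below all 6 libraries of the other models. All 10 markers were lower in Synapsin-cre replicates 2 and 3 than in every library of the other 2 models, and none was below 0.1 CPM in all 9 libraries. Their part in the levels of Itgam, Itgax and Itgb2 was not tested. Markers of other leukocytes were low, at 0.310 to 11.1 CPM for 8 neutrophil markers, with Ly6g and Camp below 0.1 CPM throughout, and at 0.635 to 5.98 CPM for 10 lymphocyte markers.

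The partners of these genes in the basement membrane were mostly higher in NG2-creERTM than in Nestin-creERT2, as was Lamc1, though few passed a test. Of 15 other basement membrane genes tested, 14 had a positive log2 fold change for NG2-creERTM over Nestin-creERT2, with a median of 1.15, against 50.9% of all genes with a positive one and a median of 0.02. Synapsin-cre over Nestin-creERT2 gave 11 of the 15 positive, with a median of 0.56, against 0.13 for all genes. Without Synapsin-cre replicate 1 it gave 12 of the 15, with a median of 0.75, against 0.01. For Synapsin-cre over NG2-creERTM 5 of the 15 were positive, with a median of -0.35, and without Synapsin-cre replicate 1 it was 7 of the 15, with a median of -0.05. edgeR with all 9 libraries called 0 of the 15 in each comparison, beside 5, 4 and 1 at an unadjusted p under 0.05 for NG2-creERTM over Nestin-creERT2, Synapsin-cre over Nestin-creERT2 and Synapsin-cre over NG2-creERTM, where 11.3, 10.8 and 12.8% of all genes had one. In the same order DESeq2 called 3, 2 and 1 of them, beside 3.48, 2.77 and 2.51% of all genes, and limma voom called 0. These shares of all genes apply to the other gene lists below as well. Fibroblast and meningeal markers, 10 in all, summed to 327 to 1574 CPM in Synapsin-cre tumours, 1123 to 3272 CPM in NG2-creERTM and 384 to 2044 CPM in Nestin-creERT2. Of the 10, 9 had a higher mean in Synapsin-cre and 8 in NG2-creERTM than in Nestin-creERT2, 4 and 5 of them without overlap, and none was below 0.1 CPM in all libraries. Without Synapsin-cre replicate 1 it was 7 of the 10 for Synapsin-cre, 5 of them without overlap. Pdgfra, which is also in the oligodendrocyte lineage list, often held much of this sum. In Nestin-creERT2 replicate 3 it made up 2024 of the 2044 CPM. Its part was smaller in NG2-creERTM replicate 3, at 640 of 1889 CPM, where Postn, listed below among the integrin ligands, reached 772 CPM. The sum thus does not separate fibroblast from oligodendrocyte lineage RNA. The part of the 10 markers in the basement membrane genes was not tested. Col15a1, the collagen XV chain of vessel and nerve basement membranes, averaged 70.4 ± 76.7 CPM in NG2-creERTM and 2.70 ± 0.698 CPM in Nestin-creERT2 (SD, n = 3 each). Its log2 fold change was 4.70 ± 0.86 (SE), with an adjusted p of 0.217 with all 9 libraries and 0.0464 without Synapsin-cre replicate 1. Col15a1 was also higher in Synapsin-cre than in Nestin-creERT2, by 3.38 ± 0.81 with an adjusted p of 0.279. Without Synapsin-cre replicate 1 that value was 3.70 ± 0.80, with an adjusted p of 0.0565. Nid2, nidogen-2, which links laminin to collagen IV, averaged 140.2 ± 104 CPM in NG2-creERTM and 12.9 ± 6.73 CPM in Nestin-creERT2, with a log2 fold change of 3.44 ± 0.65 and an adjusted p of 0.217. Nid1 averaged 167 ± 126 CPM in Synapsin-cre and 31.8 ± 15.2 CPM in Nestin-creERT2. Its log2 fold change was 2.39 ± 0.64, with an adjusted p of 0.318, and it rose by 2.77 ± 0.56 without Synapsin-cre replicate 1, with an adjusted p of 0.0494. Col18a1, the collagen that yields endostatin, rose in that fit as well, by 3.17 ± 0.63 with an adjusted p of 0.0485, against 2.67 ± 0.86 and 0.356 with all 9 libraries.

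Other ligands and receptors of the pathway gave 0 calls with all 9 libraries in edgeR and in limma voom in each comparison. Among 25 other integrin ligands, 3, 4 and 0 had an unadjusted p under 0.05 for NG2-creERTM over Nestin-creERT2, Synapsin-cre over Nestin-creERT2 and Synapsin-cre over NG2-creERTM, and DESeq2 called 2, 3 and 0. Postn, periostin, a ligand of the alphaV integrins, averaged 475 ± 350.0 CPM in NG2-creERTM and 13.4 ± 8.39 CPM in Nestin-creERT2. Its log2 fold change was 5.14 ± 1.14, with an adjusted p of 0.250 with all 9 libraries and 0.0485 in the fit of the 6 libraries of these models. Postn was also higher in Synapsin-cre than in Nestin-creERT2, by 3.96 ± 1.07 with an adjusted p of 0.318. Without Synapsin-cre replicate 1 that value was 4.42 ± 0.99, with an adjusted p of 0.0607. Vcam1, a ligand of the Itga4 and Itga9 receptors, averaged 47.3 ± 21.5 CPM in Synapsin-cre and 179 ± 47.6 CPM in Nestin-creERT2, with a log2 fold change of -1.92 ± 0.48 and an adjusted p of 0.290. Among 11 non-integrin laminin receptors 2 had an unadjusted p under 0.05 in each comparison, and DESeq2 called 1, Sgcd, for NG2-creERTM over Nestin-creERT2. Sdc1, a syndecan, averaged 140.9 ± 33.5 CPM in NG2-creERTM and 33.2 ± 17.2 CPM in Nestin-creERT2, with a log2 fold change of 2.09 ± 0.84 and an adjusted p of 0.413. Dag1, dystroglycan, averaged 217 ± 32.9 CPM in Synapsin-cre tumours, against 434 ± 147 CPM in NG2-creERTM, with a log2 fold change of -0.996 ± 0.349 and an adjusted p of 0.357.

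Of 23 genes of the integrin adhesion complex tested, edgeR with all 9 libraries, limma voom and DESeq2 called 0 in each comparison. In edgeR 4, 3 and 1 of them had an unadjusted p under 0.05 for NG2-creERTM over Nestin-creERT2, Synapsin-cre over Nestin-creERT2 and Synapsin-cre over NG2-creERTM. Pxn, the focal adhesion adaptor paxillin, averaged 134 ± 64.3 CPM in Synapsin-cre tumours, 161 ± 37.1 CPM in NG2-creERTM and 66.1 ± 8.17 CPM in Nestin-creERT2. Its log2 fold change was 1.02 ± 0.39 for Synapsin-cre over Nestin-creERT2, with an adjusted p of 0.417, and 1.28 ± 0.39 for NG2-creERTM over Nestin-creERT2, with an adjusted p of 0.324. Cd151, the tetraspanin that associates with laminin-binding integrins, averaged 191 ± 71.4 CPM in NG2-creERTM and 83.8 ± 18.3 CPM in Nestin-creERT2, with a log2 fold change of 1.19 ± 0.41 and an adjusted p of 0.364. Ptk2b, the focal adhesion kinase relative PYK2, had 404.5, 3.78 and 6.43 CPM in Synapsin-cre tumours, 8.48, 13.2 and 14.96 CPM in NG2-creERTM, and 49.8, 14.8 and 49.96 CPM in Nestin-creERT2. Synapsin-cre replicate 1 was the highest of all 9 and its fellow libraries were the lowest. The log2 fold change for Synapsin-cre over NG2-creERTM was 3.50 ± 1.501 with that library, with an adjusted p of 0.381, and -1.26 ± 0.57 without it, with an adjusted p of 0.420. For Synapsin-cre over Nestin-creERT2 it was 1.86 ± 1.404 with that library, with an adjusted p of 0.671, and -2.91 ± 0.61 without it, with an adjusted p of 0.0544.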

How the data were processed

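Per the labels' protocols, RNA came from primary glioblastoma tissue by a Qiagen RNeasy kit, and Illumina's own protocol was followed for the libraries. The deposited files hold read counts per gene, 1 file per library. The submitters' processing notes name STAR, HTSeq and the mm10 build, without versions or roles, and the annotation release is not given in the sources used here. Each file has an unstranded column and a column per strand. The column of the strand that held most reads was used. The opposite strand accounted for 3.25 to 3.64% of reads in genes. Each file opens with 4 summary lines that name no gene, which were dropped. Reads not counted in a gene made up 17.9 to 27.3% of a library. Symbols, exon lengths and coordinates came from GENCODE vM21 on GRCm38, which matched 46005 of 46517 identifiers.

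Genes were kept by filterByExpr. The test was edgeR's 2-sided quasi-likelihood test (edgeR 4.0.16, R 4.3.3), with TMM factors and one fit over the 3 models and 9 libraries. P-values were adjusted by Benjamini-Hochberg over 17947 genes, with a threshold of 0.05. The script was tested on simulated data. Alternatives were relative log expression factors, no filter, a minimum level of 1 CPM in 3 libraries, DESeq2 1.42.0, limma 3.58.1 voom, the unstranded counts, the 6 libraries of each pair of models, each library left out in turn and, added after seeing the data, each pair of models without Synapsin-cre replicate 1. CPM carry the TMM factors, and CPM per kb use merged exon length. Replicates are numbered in the order of the records. No 2 libraries of the same model agreed within counting noise, and pairs from different models were not checked. Members, gene lists and markers were chosen with earlier results of these data known. The members may be named, except 1 that is counted but not reported here, with values in every library for those called in a fit or without overlap and those that lead their role, and of each pathway list the members with the smallest p.

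Some members share sequence with other features. Itga10 shares 33.5% of its exon length with Gm42957, which had at most 3 counts in a library. Itgam shares 68.7% with Gm49368, and Itgad and Itga1 share 7.32 and 3.68% with Gm17831 and Gm49395, whose identifiers were not analysed here, so Itgam levels are uncertain to that extent. The strand counts keep reads of antisense genes apart. No UMI was used, so counts of reads are not counts of molecules.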

Additional observations from a re-analysis of the deposited data

How the results depend on the processing

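The library that mattered most was Synapsin-cre replicate 1. The count of members called was 0 in each comparison with all 9 libraries, and leaving out 1 library at a time gave 0 to 1 for NG2-creERTM over Nestin-creERT2, 0 to 3 for Synapsin-cre over Nestin-creERT2 and 0 to 0 for Synapsin-cre over NG2-creERTM. The highest counts came without that replicate. DESeq2 called 4, 6 and 1 members and 624, 497 and 451 genes in the same order. The 6 libraries of a pair of models gave 1 member and 237 genes for NG2-creERTM over Nestin-creERT2, and 0 members and 5 genes for Synapsin-cre over Nestin-creERT2. With each pair of models and without Synapsin-cre replicate 1, chosen after seeing the data, 6 members and 431 genes were called for Synapsin-cre over Nestin-creERT2 and 1 gene for Synapsin-cre over NG2-creERTM. Over all genes, leaving out 1 library gave 0 to 124, 0 to 273 and 0 to 1 calls, no filter gave 12 for NG2-creERTM and 12 for Synapsin-cre over Nestin-creERT2, and the unstranded counts gave 1 for Synapsin-cre over Nestin-creERT2. Why the calls differ between tools was not tested.

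Where a comparison had separated or called libraries for a member, the sign of that member's log2 fold change in it was the same in every alternative run. Over all 35 members tested, leaving out Synapsin-cre replicate 1 turned the sign of 3 for Synapsin-cre over Nestin-creERT2 (Itgb7, Lama3 and Lamc3), 9 for Synapsin-cre over NG2-creERTM, among them Itgam, Itgb1, Itgb3, Lama3, Lamb1 and Lamb2, and 0 for NG2-creERTM over Nestin-creERT2. Of the mean chain shares, 5 moved by more than 1 SD when the longest transcript was taken as length, such as Lama5 in Synapsin-cre, at 23.2% in place of 33.2%, and Lamb1 in NG2-creERTM, at 64.0% in place of 53.4%. No paired analysis was possible because the titles number the samples without any number shared between models. With 3 libraries a model and a biological coefficient of variation of 0.612, or 0.503 without Synapsin-cre replicate 1, changes of modest size are beyond these data, and so are levels of the members with few counts.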

Other observations

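Itga4, Itga7 and Lamb1 shared their 2 highest libraries, Synapsin-cre replicate 2 and NG2-creERTM replicate 3, with the receptor tyrosine kinase gene Met. Met reached 9037 CPM in the Synapsin-cre library and 5707 CPM in the NG2-creERTM library, while the other 7 held 4.34 to 40.1 CPM. In the same 2 libraries Itga4 had 66.7 and 94.4 CPM, against 8.84 to 31.0 CPM, and Itga7 had 252 and 249.6 CPM, against 17.9 to 116 CPM. Lamb1 had 88.7 and 98.4 CPM, against 10.9997 to 86.5 CPM, so that it stood apart only slightly. Of the 17947 genes tested, 580 (3.23%) had the same 2 highest libraries. These genes were chosen after their values were seen, and no test was made.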
